A study of Mus musculus with 7 samples.

Results

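The transcripts described here are 10 subunits of the ring-shaped chromosome complexes condensin and cohesin, out of 14610 genes that were tested and 53379 gene IDs that were counted. They comprise the condensin ATPases Smc2 and Smc4, the condensin I subunits Ncapg, Ncaph and Ncapd2, the condensin II subunits Ncapg2, Ncaph2 and Ncapd3, and the cohesin ATPases Smc1a and Smc3. The list was chosen from the measured difference between mutants and controls, because Ncapg lay higher in every mutant, so every mutant-against-control value of a subunit is a description and carries no test. All 10 genes passed the filter on low counts. The genes counted as tested passed that same filter, which keeps genes with enough reads in at least as many libraries as the smaller group holds.

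Messenger RNA was sequenced from endometrial epithelial cells of CD-1 mice, sorted from digested uteri with magnetic beads against EPCAM. The 4 mutant libraries each came from 1 mouse of the genotype LtfCre 0/+; Brg1 fl/fl, aged 120 days, in which Cre is driven by the lactoferrin gene Ltf and deletes Brg1 (Smarca4), the motor subunit of SWI/SNF (BAF) chromatin remodellers. The 3 control libraries were wild-type CD-1 samples carried over from an older study, each from pooled mice of an age not given in the sources used here. The labels give the controls no Cre and no floxed allele. Because mutants and controls were separate library sets, and 1 set was pooled, the shares of genotype, set and pooling in the values below cannot be told apart.

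Condensin and cohesin are both built on a pair of SMC ATPases whose heads are closed into a ring by a kleisin, and both also hold HEAT-repeat subunits. Condensin I reaches chromosomes after the nuclear envelope breaks down, while condensin II is nuclear throughout the cycle, and together they compact and stiffen mitotic chromosomes. Cohesin holds sister chromatids together from replication to anaphase and forms chromatin loops in interphase. Cycling cells therefore need all of them, while resting cells keep cohesin in use. Transcripts of many mitotic genes are held back outside division through the promoter element named cell cycle genes homology region (CHR), bound by the MuvB core of the DREAM complex.

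The library sizes and the purity of the sort bear on each value. Reads counted in genes ranged between 12436971 and 13364080 in mutants and between 21372036 and 25862245 in controls. Levels are given as reads per 1000000 gene reads after TMM scaling (CPM), on which 3 reads make about 0.224 to 0.241 CPM for mutants and 0.116 to 0.140 CPM for controls before scaling. Smarca4, the deleted gene, fell to 56.7 to 105 CPM in the mutants from 245 to 279 CPM in the controls (adjusted p = 0.00967 by edgeR). Of 5 epithelial markers, Cdh1 and Krt8 fell and none rose, and the summed level of the 5 was 5692 to 7663 CPM in mutants against 11820 to 13300 CPM in controls. Stromal fibroblast markers summed to 119 to 326 CPM in mutants against 437 to 554 CPM in controls, with Dcn lower as the 1 of 5 that edgeR called (3 had an unadjusted p under 0.05, and DESeq2 called 3). Smooth muscle markers summed to 5.68 to 64.4 against 56.6 to 89.95 CPM, endothelial markers to 3.84 to 14.1 against 12.8 to 15.2 CPM, leukocyte markers to 60.0 to 214 against 102 to 171 CPM, and mesothelial markers to 7.67 to 27.4 against 25.9 to 30.2 CPM. Among those 14 markers none passed in edgeR (3 had an unadjusted p under 0.05, and DESeq2 called 1, a leukocyte marker), and the T cell marker Cd3e had no read in mutant replicate 1. DESeq2 called 3423 of all 14610 tested genes, and its counts for any list here stand beside that number. The share of all tested genes with an unadjusted p under 0.05 is not given, so nothing is read from counts at that threshold in any list here. What these differences in other cells contribute to the subunit levels was not tested, and in bulk RNA fewer cells of a type cannot be told from less RNA per cell.

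The promoters are shown here because 5 of the 9 subunit genes with a RefSeq promoter window held the CHR core, the element described above, and Ncapg is one of them. The windows span 250 bases before to 50 bases after each RefSeq start on GRCm38.p6, and Smc4 was not matched. The letters searched were TTTGAA for the CHR core, CCAAT for the CCAAT box, and TTTGGCGC, TTTCGCGC or TTCCCGCC as E2F-type sites, on both strands. Capitals mark these letters, none of the marked sites overlap, and each run ends at the base before the start. The Ncapg stretch (chr5:45669805-45669924, plus strand) has its CHR core at positions -30 to -25, and that of Ncapg2 (chr12:116405316-116405435, plus strand) at positions -18 to -13. In Ncapd2 (chr6:125191587-125191736, minus strand) the CHR core lies at -123 to -118, between a pair of CCAAT boxes, and an E2F-type site at -8 to -1. In Smc2 (chr4:52439071-52439220, plus strand) it reads on the other strand at -145 to -140, and again at positions 27 to 32 after the start. Beyond the stretches shown, Ncapg has a CCAAT box at -176 to -172 and Ncapd2 another at -177 to -173. Ncapg2 has an E2F-type site at -250 to -243. Fam184b (chr5:45639502-45639621, minus strand), the neighbour of Ncapg that is described further on, is shown because its level followed that of Ncapg, and its window held none of these letters.
Ncapg: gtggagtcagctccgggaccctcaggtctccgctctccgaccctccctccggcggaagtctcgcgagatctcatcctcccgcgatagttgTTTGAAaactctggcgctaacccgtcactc
Ncapg2: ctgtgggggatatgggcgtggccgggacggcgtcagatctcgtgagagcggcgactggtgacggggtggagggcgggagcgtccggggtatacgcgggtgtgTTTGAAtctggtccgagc
Ncapd2: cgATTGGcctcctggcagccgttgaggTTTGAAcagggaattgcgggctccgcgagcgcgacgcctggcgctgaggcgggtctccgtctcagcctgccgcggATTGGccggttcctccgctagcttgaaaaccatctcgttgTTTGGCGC
Smc2: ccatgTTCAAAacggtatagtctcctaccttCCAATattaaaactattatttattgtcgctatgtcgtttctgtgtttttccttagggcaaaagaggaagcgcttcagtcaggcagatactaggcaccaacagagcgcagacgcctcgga
Fam184b: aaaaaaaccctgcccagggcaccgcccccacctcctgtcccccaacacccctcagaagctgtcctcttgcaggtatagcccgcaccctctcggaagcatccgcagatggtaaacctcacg

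The fifth gene with the core, Ncapd3, had it only in the window of its other annotated start. Across all 32851 windows, 17.9% held the CHR core, 37.4% a CCAAT box and 2.96% an E2F-type site. Of the 10 subunit windows, which belong to 9 genes, 5, 4 and 2 held these in turn. Ncaph, Ncaph2 and Smc3 held none of the letters searched. A match describes the letters in a window and is not a bound site.

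In the controls the cohesin ATPase Smc1a was the most abundant subunit per length and Ncapg the least. Levels between genes are compared as CPM per kilobase of annotated exon. On that scale Smc1a lay at 29.3 ± 1.19 (SD, n = 3) and the condensin II kleisin Ncaph2 at 23.9 ± 2.60, apart from each other without overlap. Smc3 (13.2 ± 0.808) and Smc4 (11.3 ± 1.31) came next and overlapped. Ncapd2 (6.03 ± 0.506), Ncaph (5.55 ± 1.02) and Smc2 (5.38 ± 0.913) lay below them, each overlapping its neighbour. Ncapd3 (3.03 ± 0.337), Ncapg2 (2.70 ± 0.830) and Ncapg (1.76 ± 0.445) stood lowest, and in that order neighbours overlapped. Using the longest transcript as the length kept Smc1a, Ncaph2, Smc3 and Smc4 at the top in this order and Ncapg last at 3.13 ± 0.791, while Ncaph and Ncapd2 changed places and Ncapg2 moved above Smc2.

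Ncapg, the HEAT-repeat subunit CAP-G of condensin I, was the subunit that chose the list. On GRCm38 it occupies bases 45669919 to 45700546 of chromosome 5, plus strand (ENSMUSG00000015880.13). Mutant replicates 1 to 4 held 19.8, 149, 86.9 and 105 CPM of it, beside 9.60, 11.9 and 15.8 CPM for control replicates 1 to 3. Each mutant lay above each control, with mutant replicate 1 just above the highest control and the other 3 mutants several times higher. The fitted difference was a log2 fold change of 2.86 ± 0.64 SE (n = 4 and 3), a 7.25-fold higher level. The authors' deposited table gives a log2 fold change of 2.87 ± 0.54 SE for the gene.

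**Figure D1:**
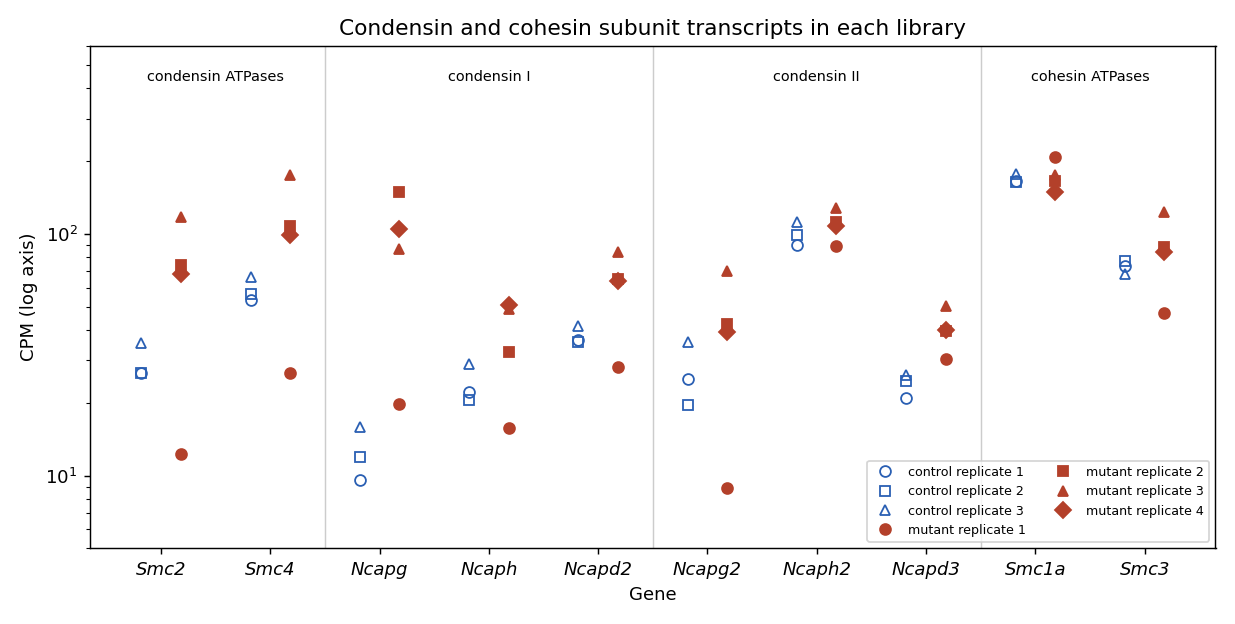
CPM of each of the 10 subunits (log axis), with 1 point per library, open blue for the 3 controls and filled red for the 4 mutants. Ncapg runs from 9.60 to 15.8 CPM in controls and from 19.8 to 149 CPM in mutants, and for 7 of the 10 genes mutant replicate 1 is the lowest of all libraries.

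The other condensin I subunits were also higher in mutant replicates 2 to 4, but by less, and lower in mutant replicate 1. Ncaph, the kleisin CAP-H (chromosome 2, 127103809 to 127133954, minus strand), stood at 15.7, 32.4, 49.1 and 50.7 CPM across the mutants, with control levels of 22.3, 20.5 and 28.9 CPM. Ncapd2, the HEAT-repeat subunit CAP-D2 (chromosome 6, 125168007 to 125191701, minus strand), stood at 28.0, 64.9, 84.0 and 63.7 CPM in the mutants against 36.2, 35.7 and 41.4 CPM. In both genes mutant replicate 1 lay below every control and the other mutants above every control. The log2 fold changes were 0.63 ± 0.40 SE for Ncaph and 0.67 ± 0.35 SE for Ncapd2.

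The ATPases that both condensins share were likewise lowest in mutant replicate 1 and above the controls in the other mutants. Smc2 (chromosome 4, 52439243 to 52488260, plus strand) lay at 12.3, 74.3, 117 and 68.6 CPM across the mutants, with control levels of 26.6, 26.6 and 35.2 CPM. Smc4 (chromosome 3, 69004738 to 69034623, plus strand) lay at 26.5, 108, 175 and 98.9 CPM against 53.4, 56.5 and 66.5 CPM. Mutant replicate 1 was again below every control, and mutant replicate 3 was the highest library for both. Their log2 fold changes were 1.21 ± 0.63 SE for Smc2 and 0.80 ± 0.53 SE for Smc4.

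Condensin II was uneven. Ncapg2, its HEAT-repeat subunit CAP-G2 (chromosome 12, 116405402 to 116463731, plus strand), ran with the ATPases at 8.84, 42.3, 70.2 and 39.3 CPM in the mutants against 25.0, 19.6 and 35.8 CPM in the controls (0.58 ± 0.59 SE on the log2 scale). Ncaph2, the kleisin CAP-H2 (chromosome 15, 89355719 to 89372826, plus strand), varied little, at 88.9, 112.5, 128 and 108 CPM against 90.1, 99.03 and 112 CPM (0.13 ± 0.18 SE). The HEAT-repeat subunit Ncapd3, or CAP-D3 (chromosome 9, 27030175 to 27095315, plus strand), lay at 30.4, 39.7, 50.1 and 40.2 CPM across the mutants, with control levels of 20.9, 24.6 and 26.1 CPM (0.75 ± 0.22 SE). Ncapd3 was the only subunit besides Ncapg whose 4 mutant values all exceeded the controls, including mutant replicate 1.

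Of the cohesin ATPases, Smc1a had the smallest fitted difference of the 10 subunits. Smc1a (chromosome X, 152016428 to 152062694, plus strand) stood at 208, 165, 175 and 149.6 CPM in the mutants against 166, 165 and 177 CPM in the controls, with a log2 fold change of 0.04 ± 0.17 SE. Mutant replicate 1 held the highest level of Smc1a, the reverse of its place among the condensin ATPases. Smc3 (chromosome 19, 53600398 to 53645833, plus strand) stood at 47.1, 88.0, 124 and 84.4 CPM against 73.6, 77.1 and 68.2 CPM, with a log2 fold change of 0.23 ± 0.30 SE. The value of Smc1a turned to -0.01 without mutant replicate 1 and was 0.39 with total count scaling, which moved the median of all tested genes from 0.06 to 0.41.

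Counted over the list, 2 of the 10 subunits lay above every control in all 4 mutants, Ncapg and Ncapd3, where 15.4% of all tested genes did, and none lay below in all 4, where 16.1% did. With total count scaling Smc1a joined them. The edgeR fit at an adjusted p under 0.05 called 1 subunit higher, Ncapg, and none lower, where it called 5.37% of tested genes higher and 6.18% lower (784 and 903 genes, or 2202 and 532 with total count scaling and 1178 and 704 with upper-quartile scaling). Since the list was made from this contrast, nothing is read from these counts. The median log2 fold change of the 10 was 0.65, beside 0.06 over all tested genes.

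Which library is left out decides the count. Without mutant replicate 1 the fit called 6 subunits higher (Smc2, Smc4, Ncapg, Ncaph, Ncapd2 and Ncapd3) and none lower, where it called 15.5% of tested genes higher and 14% lower. Without any 1 of the other 6 libraries it called none, the fit then calling 629 to 1009 genes without a mutant and 133 to 169 without a control, against 1687 with all libraries. The log2 fold change of Ncapg lay between 2.51 and 3.24 in these 7 fits. With edgeR no subunit was called lower in any of them.

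Library by library, mutant replicate 1 differed from the other mutants. Mutant replicate 1 had 3 subunits above every control (Ncapg, Ncapd3 and Smc1a) and 7 below, where 40.7% and 40.4% of all tested genes lay above and below. In mutant replicate 2, 9 subunits lay above and none below (39.5% and 42% of tested genes), and in mutant replicate 3 likewise 9 and none (40% and 41.9%). In mutant replicate 4, 8 lay above and 1 below, Smc1a (38.8% and 40.4%). The median subunit stood 0.51 lower than the control mean on the log2 scale in mutant replicate 1 (-0.51), and 0.72, 1.11 and 0.75 higher in the others.

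The mean of the proliferation genes was also lowest in mutant replicate 1 and highest in mutant replicate 3. Mutant replicates 2 and 4 changed places against the subunit medians. Cenpa was highest in mutant replicate 2, at 105 CPM against 83.6 CPM in mutant replicate 3. The proliferation antigen Mki67 was counted at 12.3 CPM for mutant replicate 1 but 269, 369 and 193 CPM for mutant replicates 2 to 4, with controls between 72.6 and 128 CPM. Averaged over 12 proliferation genes, log2 CPM minus the control mean came to -2.55, 1.26, 1.77 and 0.75 for mutant replicates 1 to 4. None of these 12 genes passed the edgeR test with all libraries, by DESeq2 or at an unadjusted p under 0.05. Without mutant replicate 1, 7 rose in edgeR, where 15.5% of all tested genes rose. Pcna, Mcm2, Mcm5, Mcm6 and Cenpa were not called then. The part of proliferation in the subunit levels was not tested.

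Ncapg lay above that mean in every mutant. Relative to the proliferation mean its log2 level was 3.24, 2.35, 1.06 and 2.34 higher in mutant replicates 1 to 4, and -0.14, 0.15 and 0.00 in the controls. Smc2, in the same measure, was 1.30 higher in mutant replicate 1 but 0.09, 0.23 and 0.48 in the others. Smc4 gave 1.41, -0.37, -0.19 and 0.00, and Ncaph 1.96, -0.80, -0.72 and 0.34. In mutant replicate 1 each of the 10 subunits fell short of the proliferation mean's drop, by 1 log2 unit (Ncapg2) to 3.24 (Ncapg). In the remaining mutants only Ncapg and Smc2 of these 10 exceeded that mean every time. Genes outside the list did so too. Against the control mean, Ccna2 stood at 2.55, 2.89 and 1.52 and Plk1 at 2.38, 3.18 and 1.91 in mutant replicates 2 to 4. Ncapg stood at 3.60, 2.82 and 3.09 there. In mutant replicate 1 the values were -2.71 for Ccna2, -3.41 for Plk1 and 0.69 for Ncapg.

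**Figure D2:**
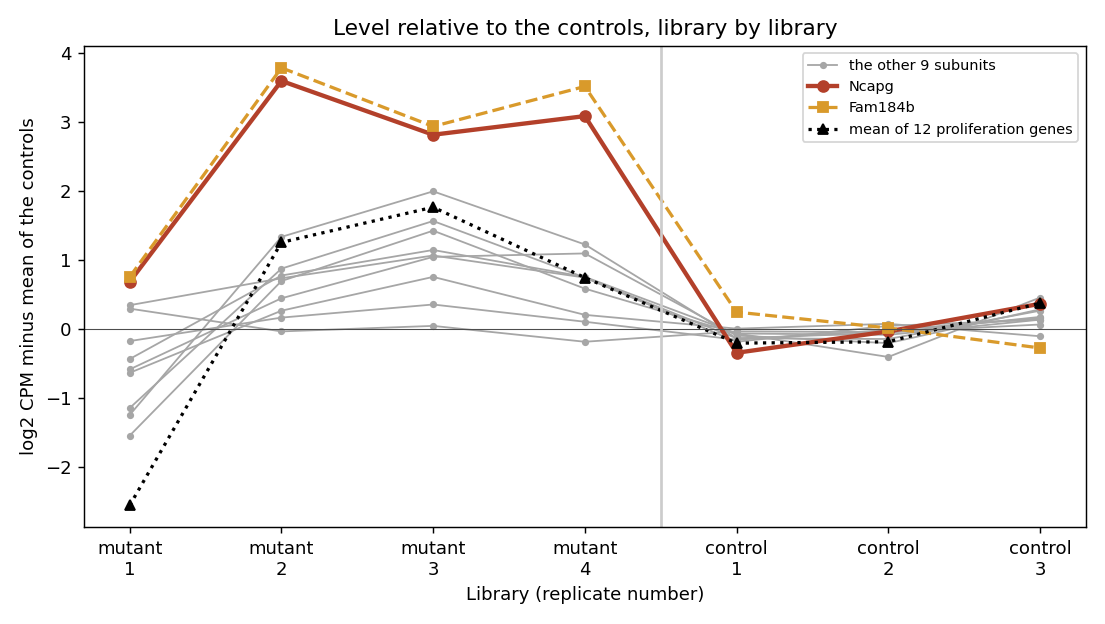
Log2 CPM minus the control mean (vertical axis) in each of the 7 libraries, for Ncapg, its neighbour Fam184b, the other 9 subunits (grey) and the mean of 12 proliferation genes. Lines only join the points of 1 gene, and Ncapg is above 0 in mutant replicate 1 where the proliferation mean is at -2.55.

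Within a library, Ncapg was out of its control proportion to its own complex. The per-kilobase level of Ncapg was 0.263, 0.354 and 0.334 times that of Ncaph in the controls, and 0.767, 2.81, 1.08 and 1.26 times in the mutants. Against Ncapd2 the ratios were 0.235, 0.296 and 0.339 in the controls and 0.627, 2.04, 0.917 and 1.46 in the mutants. In both ratios every mutant exceeded every control, mutant replicate 1 included. Ncaph over Ncapd2 overlapped between the groups, at 0.894, 0.838 and 1.01 in controls and 0.817, 0.726, 0.850 and 1.16 in mutants. These ratios are free of library scaling, and they come from the contrast that chose the list.

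Other pairs divided by library rather than by genotype. Smc1a over Smc3 came to 4.25 for mutant replicate 1, above the control range of 2.05 to 2.49, and to between 1.36 and 1.81 for the other mutants, below it. Ncapg2 over Ncapd3 came to 0.231 for mutant replicate 1, while controls (0.635 to 1.09) and the other mutants (0.776 to 1.11) overlapped. The summed condensin ATPases over the summed cohesin ATPases ran from 0.359 to 0.446 in the controls, with 0.164 in mutant replicate 1 and 0.765 to 1.04 in the other mutants. Condensin I over condensin II subunits had control values from 0.423 to 0.464 and mutant values, for replicates 1 to 4, of 0.422, 1.08, 0.844 and 1.06. The condensin I sum includes Ncapg, the gene that chose the list. Per kilobase, Ncapg was 21.1, 12.3 and 14.9 in mutant replicates 2 to 4, beside 10.4, 13.4 and 10.2 for Ncapd2.

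**Figure D3:**
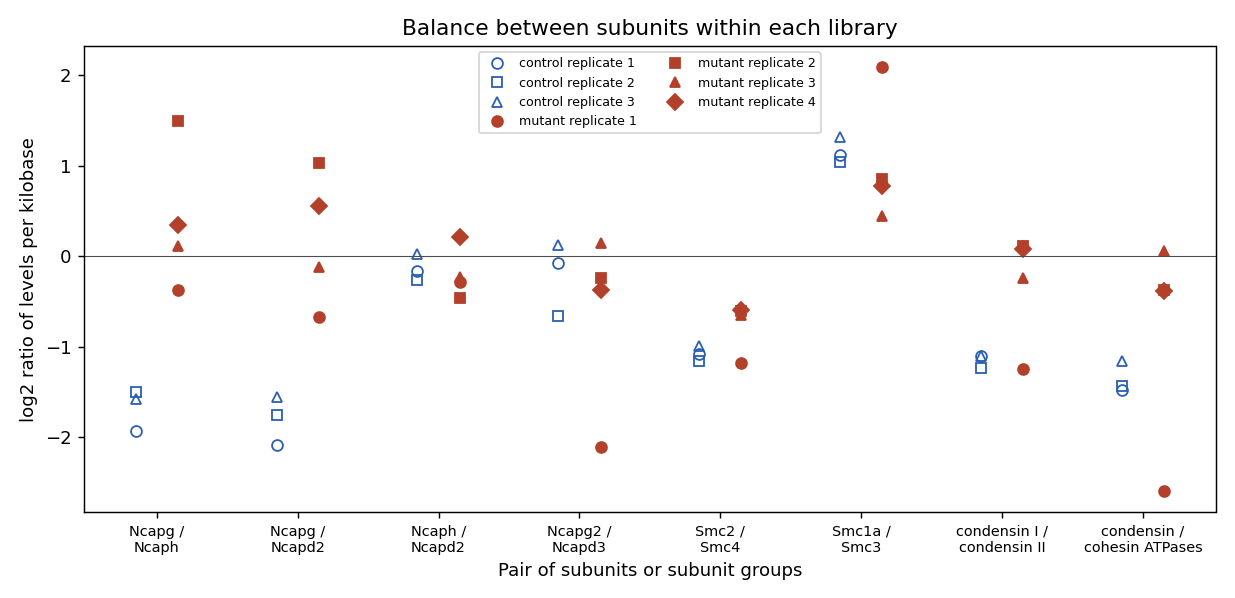
Log2 ratio of levels per kilobase between subunits or groups of subunits within each library, open blue for controls and filled red for mutants. The ratios of Ncapg to Ncaph and to Ncapd2 are higher in all 4 mutants than in the 3 controls. For Smc1a over Smc3, mutant replicate 1, at 2.09, lies on the other side of the controls from the remaining mutants.

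The genes closest to Ncapg in their course over the 7 libraries did not include a subunit. Likeness was measured as the root mean square difference of log2 CPM relative to the controls, among genes with a mean of at least 5 CPM. The closest was Fam184b (0.38), followed by the cytokine gene Il18 (0.42), the nucleoside diphosphate kinase Nme4 (0.55), Gm19680 (0.55) and 3110039I08Rik (0.56). Among the subunits, measured separately, Smc2 was nearest, at 1.37 and rank 937 among all tested genes without a limit on CPM. For Smc2, measured in the same way after its values had been seen, the closest genes were Incenp (0.16), a subunit of the chromosomal passenger complex, the recombination helicase Rad54l (0.16), the replication fork protein Tipin (0.17), 2700099C18Rik (0.19) and Cdca5 (0.20), or sororin, which guards cohesin against release.

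Fam184b is the next protein-coding gene upstream of Ncapg. It lies on the minus strand of chromosome 5 (45529705 to 45639614), its start 30.3 kb from the Ncapg start, so that the pair point away from each other. Its level was 2.82, 23.9, 13.2 and 19.9 CPM in the mutants and 1.95, 1.64 and 1.32 CPM in the controls (log2 fold change 3.19 ± 0.70 SE). Mutant replicate 2 was the highest library for both genes and mutant replicate 1 the lowest mutant, above every control in both.

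The other tested genes within 200 kb were looked at after this was seen, and are described without a test. At this locus the deletion of Brg1 and a local difference between the mouse stocks of mutants and controls cannot be told apart. The antisense RNA 9630001P10Rik, which overlaps the start of Fam184b on the other strand and begins -31.2 kb from that of Ncapg, had 7, 27, 17 and 27 reads in the mutants and 2, 6 and 2 reads in the controls (2.96 ± 0.69 SE). Gm36401, an unclassified plus-strand transcript at 32.8 kb, downstream of the Ncapg end, had 4, 16, 17 and 18 reads against 3, 3 and 6 reads (2.23 ± 0.60 SE). Reads that run past the end of Ncapg cannot be told from this transcript. Both low transcripts lay above the controls in CPM in all 4 mutants. They passed the low count filter only through mutants, so nothing is read from that. Of neighbours that failed the filter, Gm29036 had 4, 1, 1 and 5 reads in mutants against 19, 15 and 17 in controls. Gm43200 had 4, 1, 1 and 0 reads against 9, 9 and 5, while Gm43366 had 1, 8, 0 and 6 against 0 in each control.

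Further out the difference was small. Lap3, an aminopeptidase gene at -176.5 kb, had 133 to 192 CPM across mutants, against 112 to 133 CPM across controls (0.48 ± 0.19 SE), and the Mediator subunit Med28, at -149.7 kb, at 32.0 to 44.5 against 31.4 to 43.5 CPM (0.12 ± 0.20 SE). Lcorl, a putative transcription factor gene on the opposite strand whose 3′ end overlaps that of Ncapg and whose start lies 187.7 kb away, had 60.4, 39.7, 30.3 and 22.1 CPM in the mutants against 50.6, 51.2 and 46.4 CPM (-0.37 ± 0.33 SE). The counts are strand-specific, so reads of Ncapg and Lcorl are kept apart, and with unstranded counts Ncapg had a log2 fold change of 2.78.

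Around the other subunits the fitted values of the neighbours varied from subunit to subunit. Within 200 kb, Ncapd3 had 4 tested neighbours with log2 fold changes from 0.45 to 0.89, beside its own 0.75. Of these, 2 lay above every control in all 4 mutants, where 15.4% of all tested genes did. So did 3 of the 6 around Ncapg, among them 9630001P10Rik and Gm36401, which passed the low count filter only through mutants. The same held for 3 of 9 around Ncaph, and for 1 gene each around Ncapd2, Ncapg2, Ncaph2 and Smc1a. Smc3 had 4 tested neighbours, with log2 fold changes from -1.50 to -0.12, and Ncapd2 had 16, from -1.52 to 0.64. The 6 beside Smc4 had a median of 0.8, near the fitted value of Smc4 itself, 0.80. Medians beside the remaining subunits with tested neighbours ran from -1.1 (Smc3) to 0.66 (Ncapd3). The median beside Ncapg was 1.36, with 9630001P10Rik and Gm36401 included. Smc2 had no tested neighbour. The highest value next to Ncapg was that of Fam184b, 3.19, and the highest next to any other subunit was 2.05, beside Ncaph2.

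**Figure D4:**
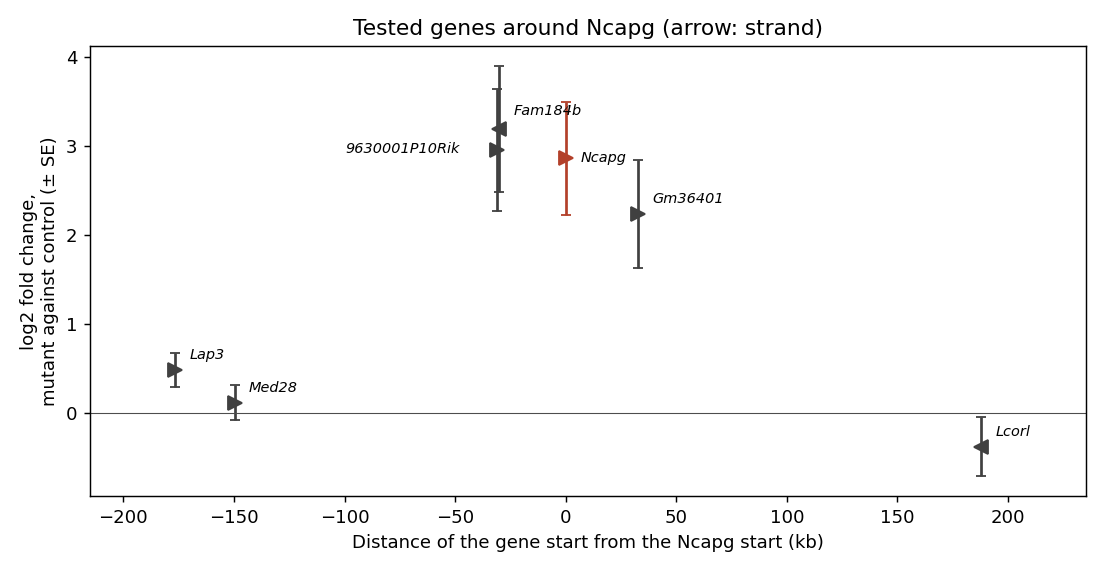
Log2 fold change of mutants against controls with its standard error (vertical axis) for Ncapg and the 6 tested genes within 200 kb, placed by the distance between gene starts in kb, with arrows for the strand. Ncapg, Fam184b, 9630001P10Rik and Gm36401 lie between 2.23 and 3.19, and Lap3, Med28 and Lcorl between -0.37 and 0.48. 9630001P10Rik and Gm36401 passed the low count filter only through mutants.

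Of the partners and regulators of the rings, 36 were listed and 34 tested. With all libraries edgeR called 1 higher and none lower, no larger a share than the 5.37% and 6.18% of all tested genes. DESeq2 called 7 of the 34, where it called 3423 of all 14610 tested genes. The 1 gene that edgeR called was Pttg1, securin, which holds separase inactive until anaphase. It lay at 19.1, 33.3, 29.1 and 24.7 CPM across the mutants, with control levels of 6.54, 9.84 and 14.0 CPM, without overlap and with mutant replicate 1 also above the controls. The log2 fold change was 1.39 ± 0.33 SE (adjusted p = 0.0374 by edgeR), and it missed the threshold without mutant replicate 2, 3 or 4 or without any control, at adjusted p from 0.0673 to 0.130. The 34 had a median log2 fold change of 0.64. This list was drawn up with earlier results of these data known.

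Without mutant replicate 1, 19 of the 34 rose and 1 fell in edgeR, where 15.5% of all tested genes rose and 14% fell. All 7 condensin regulators rose. They include the kinases Plk1 (2.53), Aurkb (1.85) and Cdk1 (1.38), the chromokinesin Kif4 (1.10), and Top2a (1.04), the topoisomerase that untangles sister chromatids. With all libraries Plk1 ran from 0.626 CPM in mutant replicate 1 to 71.6 CPM in mutant replicate 3, against 4.48 to 11.1 CPM in controls, and edgeR then called none of the 7 (3 had an unadjusted p under 0.05, and DESeq2 called 2). Top2a, at 247 to 406 CPM in mutants against 115 to 213 CPM in controls, lay above the controls in all 4 mutants (0.95 ± 0.28 SE, adjusted p = 0.0691 by edgeR).

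Among the regulators of cohesin, Pttg1 was the 1 of 14 that edgeR called with all libraries (4 had an unadjusted p under 0.05, and DESeq2 called 3). Without mutant replicate 1, 9 of 14 rose, among them the shugoshin Sgo2a (2.37), which shields centromeric cohesin, the S-phase acetyltransferase Esco2 (2.11), the shugoshin Sgo1 (1.95), the separase Espl1 (1.797) and Cdca5 (1.56). The loader subunit Mau2 fell (-0.54, edgeR adjusted p = 0.0328). Its partner Nipbl stood at 159 to 183 CPM in mutants against 161 to 188 CPM in controls (-0.05 ± 0.15 SE), and the release factor Wapl at 132 to 173 against 168 to 177 CPM (-0.16 ± 0.16 SE). The loop-boundary protein Ctcf was above the controls in all 4 mutants, at 45.7 to 81.3 against 37.6 to 42.1 CPM (0.63 ± 0.22 SE, adjusted p = 0.104 by edgeR).

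None of the 5 tested core partners of the cohesin ATPases passed in edgeR with all libraries (1 had an unadjusted p under 0.05, and DESeq2 called 1). The kleisin Rad21 was the most abundant, at 141, 258, 309.7 and 259 CPM in the mutants against 238, 189 and 248 CPM in the controls (0.10 ± 0.28 SE, adjusted p = 0.832 by edgeR). The mitotic subunits Stag1 (-0.15 ± 0.20 SE) and Stag2 (0.13 ± 0.17 SE) had fitted values near 0. The meiotic subunit Stag3 rose without mutant replicate 1 (2.04). It lay at 0.469 CPM in mutant replicate 1, 1.89 to 2.69 CPM in the other mutants and 0.476 to 0.633 CPM in controls. Stag3 passed the low count filter only through mutants, so nothing is read from its rise. Meiotic Rad21l had no read in any library, and Smc1b had 2 to 8 reads in each mutant and none in the controls. In the SMC5/6 group, which serves DNA repair, edgeR called none of 8 with all libraries (1 had an unadjusted p under 0.05, and DESeq2 called 1), and Smc6 (1.03) and Nsmce4a (0.73) rose without mutant replicate 1. The most abundant gene of that group was Smchd1, an SMC-like protein of X inactivation, at 104.5 to 185 CPM in mutants against 170.2 to 183.5 CPM in controls (-0.34 ± 0.22 SE, adjusted p = 0.328 by edgeR).

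**Figure D5:**
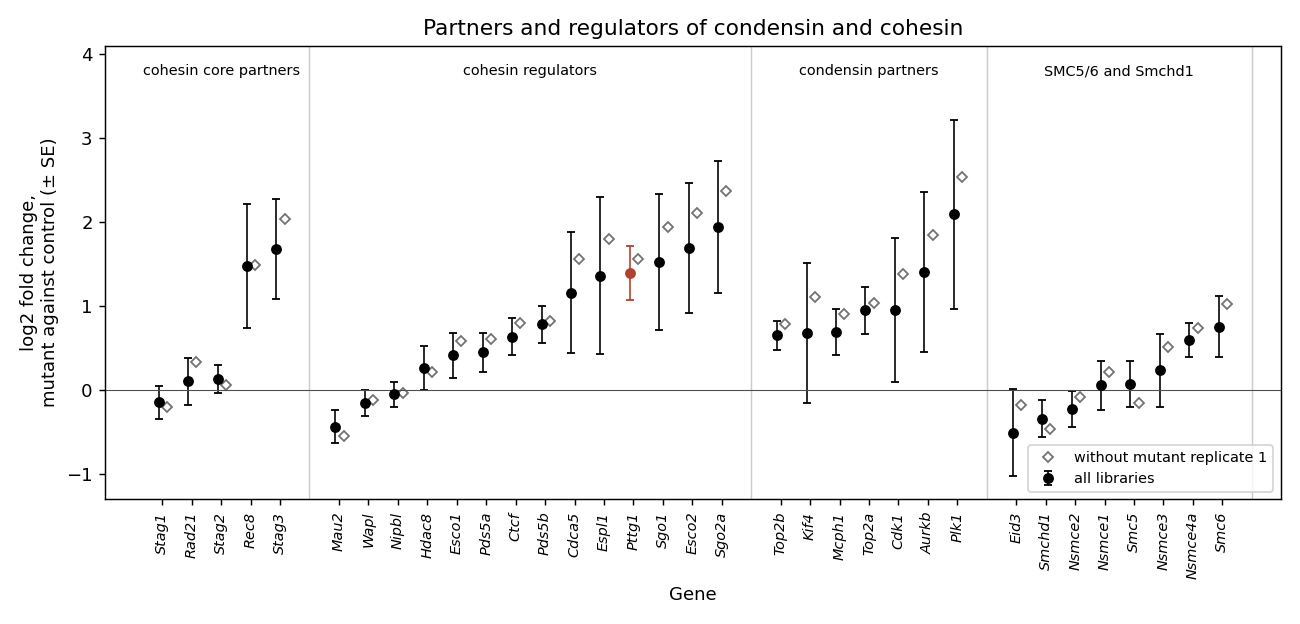
Log2 fold change of mutants against controls (vertical axis) for the 34 tested partners and regulators, as filled points with standard errors for all libraries and open diamonds without mutant replicate 1. Pttg1, at 1.39, is drawn in red as the gene that passed with all libraries, and the open diamonds of the 7 condensin partners lie between 0.78 and 2.53.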

How the data were processed

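EPCAM-sorted cells gave 7 libraries, made with a directional KAPA mRNA kit per the labels' protocols. The authors deposited raw STAR counts per gene and library, and per the submitters' processing notes used cutadapt, Trim Galore, FastQC, STAR and DESeq2 with mm10. They also deposited their own comparison, with log2 fold changes, standard errors and adjusted p-values as the authors computed them. Of that table only log2 fold changes and standard errors are printed.

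Reverse-stranded counts were used. They made up 94.8% to 95.6% of the stranded reads. Reads in no gene, as a share of all reads (unmapped 3.90% to 6.70%, multimapping 8.45% to 11.2%, no feature 10.5% to 14.7%, ambiguous 0.827% to 1.29%) were left out. Genes kept by filterByExpr were tested with edgeR 4.0.16 in R 4.3.3 (quasi-likelihood, TMM, genotype only, two-sided, Benjamini-Hochberg over 14610 genes, threshold 0.05), which was tried on simulated data. DESeq2 1.42.0 was an alternative. Coordinates, symbols and exon lengths are from GENCODE M21, which held 53274 of 53379 IDs, and promoters from RefSeq. Of the 50-base words of a subunit's transcripts, at most 5.91% (Ncaph2) occur in other genes.

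The members and lists were chosen with earlier results of these data known. Genes named are all subunits, the partner genes past the threshold or most abundant in their list, and the 5 genes most like Ncapg. Others named, including the neighbours of Ncapg and the examples without mutant replicate 1, were chosen after their values were seen. Mutants are separate mice and controls pools, so the p-values describe variation among those mice and pools.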

Additional observations from a re-analysis of the deposited data

Results flagged for a closer look

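Mutant replicate 1 stood apart from the other 3 mutants for several items. Among 74 genes and ratios examined for 1 library far from the rest of the mutants, 6 exceeded Dixon's 95% limit on the gap divided by the range, which chance exceeds in about 5% of groups. The gap made up 0.918 of the range for the ratio Smc2 over Smc4 and 0.832 for the condensin over the cohesin ATPases. It made up 0.863 for Esco2, 0.885 for Ccnb2 (cyclin B2), 0.858 for Nme4 and 0.841 for Incenp. In all 6 the library apart was mutant replicate 1, and its values were the lowest. The items were not independent, since the ratios share genes. Nme4 and Incenp had been picked for likeness to Ncapg and Smc2 in these same libraries. Nothing is therefore read from the number of items flagged.

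Reads on the strand opposite to a gene were not used in any comparison. For Smc4 the lowest mutant value was 0.724 reads per 1000000 gene reads without TMM scaling, against 0.425 to 0.5995 in the controls. These were 9 to 25 reads per mutant library and 11 to 13 reads per control library. With the TMM factors, 1.03 to 1.23 in mutants and 0.852 to 0.886 in controls, the Smc4 values of the groups would overlap. For Smc1a the lowest mutant value was 2.02 against 0.608 to 1.11 in the controls. No test was run on these reads.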

How the results depend on the processing

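With 14 alternatives per fit, Ncapg kept a positive log2 fold change, from 2.39 to 3.24, and the median of the 10 subunits stayed positive, from 0.39 to 1.03. The count of genes called was 1687, and 2734 with total count scaling, 3423 with DESeq2 and 1057 without a low count filter. It was 133 to 4403 when 1 library was left out. The subunits called numbered 1, and 2 with upper-quartile scaling, total count scaling and DESeq2 each, and 0 to 6 when 1 library was left out. The partner genes called numbered 1, and 5, 7 and 7 under those 3 settings in turn, 0 without the filter, 2 with unstranded counts and 0 to 20 when 1 library was left out. With the replicate block 2 genes, 0 subunits and 0 partners were called, and the adjusted p of Pttg1 was 0.145 (0.001006 to 0.145 over its 14 alternatives). Replicate numbers only name these mice and pools: the deviations of same-numbered libraries correlated at -0.02, -0.36 and 0.16. The subunits above every control in all mutants, 2 with TMM, were 3 with total count scaling, an alternative added after the data had been seen. With the longest transcript as the length, condensin I over II in the controls was -1.01 on the log2 scale instead of -1.15. The causes of these shifts were not tested. The mutants' lower depth limits low transcripts such as 9630001P10Rik.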
